A study of Mus musculus with 441 samples.

Results

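The cytosolic ribosomal protein genes were taken from the expression table by symbol: Rpl or Rps followed by a digit, together with Rplp0, Rplp1, Rplp2 and Rpsa, without the S6 kinase genes and without symbols marked as pseudogenes. The rule took 85 of the 13561 genes measured. Of these, 77 encode the usual proteins of the cytosolic ribosome, 46 in the large and 31 in the small subunit. The other 8 were the paralogs Rpl3l, Rpl39l, Rpl22l1, Rpl7l1, Rpl36al and Rps27l, the symbol Rps4y2, which RefSeq lists as a synonym of the transcribed pseudogene Rps4l, and Rps19bp1, whose product is not part of the ribosome.

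Ribosomal proteins are made in nearly equal numbers and assemble with ribosomal RNA in the nucleolus, and their mRNAs are among the most abundant in most cells. Many of these mRNAs begin with a C followed by a run of pyrimidines, the 5′ terminal oligopyrimidine (TOP) motif, through which mTOR and the RNA-binding protein LARP1 control how well they are translated. T cells build more ribosomes when antigen makes them grow and divide, so ribosomal protein transcripts can differ among T cell states. Whether growth bears on the differences between classes below was not tested.

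The study profiled single cells from mouse pancreatic islets by SMART-Seq2, a method that copies full-length mRNA, after FACS sorting of CD4 T cells that bound a tetramer of MHC class II carrying a peptide. The labels name a HIP sort (184 cells) and an Ins sort (257 cells) without spelling out either name, and give no strain, age, treatment or animal. The authors' classes were T follicular helper (Tfh; 111 HIP and 61 Ins cells), regulatory T cells (Treg; 3 and 115), a class of activated CD4 T cells here called cluster 2 (61 and 25), dividing T cells (9 and 35) and a class of B cells here called cluster 4 (21 cells, Ins sort only). Cells were not replicates and each sort counted as 1 sample, so no test was made and an SD is the spread between cells. Blocks of 96 consecutive cell numbers, 2 in the HIP and 3 in the Ins sort, describe spread within a sort, and since each block lies within 1 sort, block and sort cannot be told apart.

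Levels are in TPM, a transcript abundance per length that sums to 1000000 in each cell, so a lower level of ribosomal protein transcripts and a higher level of all others cannot be told apart. TPM keeps no read depth, and the number of genes detected, 625 to 5929 per cell with a median of 2081, is the only stand-in. The ribosomal RNA precursor Rn45s took 0.188% to 44.4% of TPM, with a median of 2.21%. The T cell markers Cd3e, Cd3d, Cd3g, Cd4, Lck and Thy1 summed to medians of 4966 to 10992 TPM in the T cell classes and to 0 in cluster 4, where Cd4 was at 0. Cluster 4 instead held 40116 to 329559 TPM of antibody-secreting cell markers. The Treg markers Foxp3, Il2ra, Ikzf2 and Ikzf4 had a median sum of 639 TPM in Ins Treg cells and 0 in both Tfh classes. The 3 HIP Treg cells had a median sum of 19.1 TPM, with Foxp3 detected in 1 of them and Ikzf4 at 0, so the label rests on little there. The authors drew their classes from this expression table, which includes the members, so differences between classes are descriptions.

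The start sites of these genes are shown because many of them carry the TOP motif by which the family is usually recognised. RefSeq start sites (GRCm38.p6) were at hand for 64 of the 85 members, and each window below runs from 20 bases before to 20 bases after the annotated start, 5′ to 3′ on the strand of the gene. A C followed by 5 bases that were each C or T, within 10 bases on either side of the start, was found in 34 of the 64 (53.1%), and in 31 of the 57 usual subunit genes (54.4%), against 5910 of 27025 genes in all (21.9%). A gene with several annotated starts counted if any of them held such a run. Only the strand of the gene was searched, and runs may overlap one another. Capitals mark the run nearest the annotated start, to its last pyrimidine, so pyrimidines can also stand directly before the capitals, as in Rps10. The first 8 are subunit genes in which such a run could be read from the annotated start base, though the pyrimidines reach further upstream. Fau and Eef1a1 encode a further ribosomal protein and an elongation factor. In other members the run nearest the start lay elsewhere in the window, as in Rpl6 at -9 and Rps12 at 8 bases from the start. The last 3, Rplp0, Rpl24 and Rpl36al, did not hold such a run, which says only that these letters were not in this window. Windows of Rps18, Rps27 and Rps10 were at chr17:33955646-33955685, chr3:90213629-90213668 and chr17:27635225-27635264, and those of Rps6, Rpl28 and Rpl35 at chr4:86857348-86857387, chr7:4792945-4792984 and chr2:39005112-39005151. Those of Rpl38, Rpl15 and Fau were at chr11:114668560-114668599, chr14:18270967-18271006 and chr19:6057927-6057966. Those of Eef1a1, Rplp0, Rpl24 and Rpl36al were at chr9:78481705-78481744, chr5:115559447-115559486, chr16:55966255-55966294 and chr12:69184048-69184087. Rpl28, Rpl38, Fau, Rplp0 and Rpl24 lie on the plus strand and the others on the minus strand.
Rps18: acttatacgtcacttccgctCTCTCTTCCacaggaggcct
Rps27: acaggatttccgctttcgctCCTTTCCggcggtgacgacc
Rps10: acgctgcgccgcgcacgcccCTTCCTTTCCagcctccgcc
Rps6: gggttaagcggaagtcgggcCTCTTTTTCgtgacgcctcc
Rpl28: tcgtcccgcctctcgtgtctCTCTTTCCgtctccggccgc
Rpl35: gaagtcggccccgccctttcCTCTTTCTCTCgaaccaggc
Rpl38: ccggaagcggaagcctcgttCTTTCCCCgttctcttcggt
Rpl15: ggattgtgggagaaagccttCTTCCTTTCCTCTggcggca
Fau: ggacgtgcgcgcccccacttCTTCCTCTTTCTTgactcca
Eef1a1: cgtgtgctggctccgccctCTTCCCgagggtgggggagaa
Rplp0: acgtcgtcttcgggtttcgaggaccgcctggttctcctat
Rpl24: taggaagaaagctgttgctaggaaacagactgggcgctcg
Rpl36al: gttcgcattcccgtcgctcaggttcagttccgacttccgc

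Ribosomal protein genes also have many near-identical copies in the genome, which bears on how reads are assigned. The next windows show 4 such pairs from the GENCODE vM21 transcripts (GRCm38), 60 bases each, with the bases that differ in capitals. Rpl34 (chr3:130726831-130730398, minus strand) and the processed pseudogene Rpl34-ps1 (chr6:71124610-71124963, plus strand) differed at 2 of 354 coding bases, and coding bases 102 to 161 are shown. Rpl26 (chr11:68901583-68906989, plus strand) and the processed pseudogene Gm15772 (chr5:3236431-3236868, plus strand) differed at 2 of 438, and bases 147 to 206 are shown. Reads of the study were 50 and 25 bases long per the labels, so many reads from either copy of such a pair match both.
Rpl34: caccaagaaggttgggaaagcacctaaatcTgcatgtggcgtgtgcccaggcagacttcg
Rpl34-ps1: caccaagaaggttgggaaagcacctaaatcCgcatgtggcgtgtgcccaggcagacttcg
Rpl26: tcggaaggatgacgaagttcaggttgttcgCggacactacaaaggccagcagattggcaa
Gm15772: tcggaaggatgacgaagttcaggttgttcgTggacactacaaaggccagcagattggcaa

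Both functional paralog pairs that varied most among classes differed far more, and their first 60 coding bases are shown. Rps27 (chr3:90212522-90213651, minus strand) and Rps27l (chr9:66946086-66949516, plus strand) were the same at 76.1% of 255 coding bases. Rpl36a (chrX:134585654-134588062, plus strand) and Rpl36al (chr12:69182731-69184083, minus strand) were the same at 87.9% of 321.
Rps27: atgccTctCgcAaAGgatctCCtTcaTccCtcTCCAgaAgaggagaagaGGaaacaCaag
Rps27l: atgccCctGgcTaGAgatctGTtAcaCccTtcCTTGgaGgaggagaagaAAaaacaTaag
Rpl36a: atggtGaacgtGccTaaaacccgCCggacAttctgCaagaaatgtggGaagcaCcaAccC
Rpl36al: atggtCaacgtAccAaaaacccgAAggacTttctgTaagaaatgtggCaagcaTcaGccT

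Over the usual subunit genes, the median share of a transcript's 50-base windows that also occurred in a transcript of another gene was 55.5%, and 47 of 77 were above 50%. The share was highest for Rps27, at 98.6%. Rpl36a had 85.5%, and the paralogs Rpl36al and Rps27l had 63.3% and 22.4%. The sources used here do not say how reads matching several genes were divided. The levels of single members with high shares, and the balance of their pairs, are therefore uncertain. Across the 77 usual genes the rank correlation of this share with mean TPM was 0.07 (genes are not independent replicates).

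The 85 genes together supplied 15.3 ± 5.14% of TPM per cell (SD, n = 441 cells), with a lowest cell at 1.03%, a median of 14.8% and a highest cell at 31.2%. Of the 100 genes with the highest mean TPM, 43 were members. The highest was Rps14, a small subunit protein, at 5786 ± 2899 TPM, with a range of 0 to 17195 and a median of 5400.0. Rps4x, an X-linked small subunit gene, averaged 5288 ± 3346 TPM, and Rplp0, which anchors the acidic stalk of the large subunit, averaged 4354 ± 2616 TPM. Others among the 10 highest by mean were Rpl13 (4346 TPM), Rpl19 (4118), Rpl41 (3989), Rpl3 (3974) and Rps9 (3231). The 10 highest made up 27.9% of the summed level of all members. Rplp1 and Rplp2, the acidic stalk proteins bound to Rplp0, averaged 2371 and 1184 TPM, and Rpsa, a small subunit protein also known as the laminin receptor, averaged 2103 TPM.

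Although the proteins are needed in nearly equal numbers, the usual genes ranged in mean level from 46.6 to 5786 TPM, with a median of 1795 TPM, and 61 of 77 reached 1000 TPM. Of the 77, 66 were detected (1 TPM or more) in more than 75% of cells and 37 in more than 90%, where the median over all genes of the table was 7.94%. The usual genes detected least were Rpl30 (9.75% of cells), Rpl34 (37.4%), Rpl22 (55.3%), Rps12 (59.0%) and Rpl26 (59.9%). For Rpl34 and Rpl26, near-identical copies carried most of the level. Rpl34-ps1 averaged 1529 TPM against 64.6 TPM for Rpl34, or 95.9% of the pair, and Gm15772 averaged 1811 TPM against 239 TPM for Rpl26, or 88.4% of the pair. Rps15a, a small subunit gene, averaged 220.0 TPM and its copy Rps15a-ps6 averaged 361 TPM.

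The mean share of TPM was highest in dividing and Tfh cells and lowest in Ins Treg cells. The medians of Ins Treg cells and Ins cluster 2 were both 12.2%. Dividing cells had 19.0 ± 3.31% in the HIP sort (14.6% to 24.1%, median 19.4%, n = 9 cells) and 17.1 ± 4.84% in the Ins sort (6.67% to 27.1%, median 17.1%, n = 35 cells). Ins Treg cells had 12.5 ± 3.54% (6.08% to 25.6%, median 12.2%, n = 115 cells), and the 3 HIP Treg cells had 7.29%, 14.5% and 18.1%. Cluster 2 had 14.4 ± 4.37% in the HIP sort (8.08% to 31.2%, median 14.0%, n = 61 cells) and 14.3 ± 4.53% in the Ins sort (8.03% to 26.6%, median 12.2%, n = 25 cells). Tfh cells had 17.1 ± 5.25% in the HIP sort (2.29% to 29.8%, median 17.3%, n = 111 cells) and 18.2 ± 5.87% in the Ins sort (1.03% to 30.0%, median 18.7%, n = 61 cells). Cluster 4 had 13.0 ± 4.05% (5.59% to 20.8%, median 13.3%, n = 21 cells). By mean the order from high to low was HIP dividing, Ins Tfh, HIP Tfh, Ins dividing, HIP cluster 2, Ins cluster 2, HIP Treg, cluster 4 and Ins Treg. Single cells overlapped between all of these groups, and each group differed from the next in this order by less than the SD over cells of either.

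**Figure D1:**
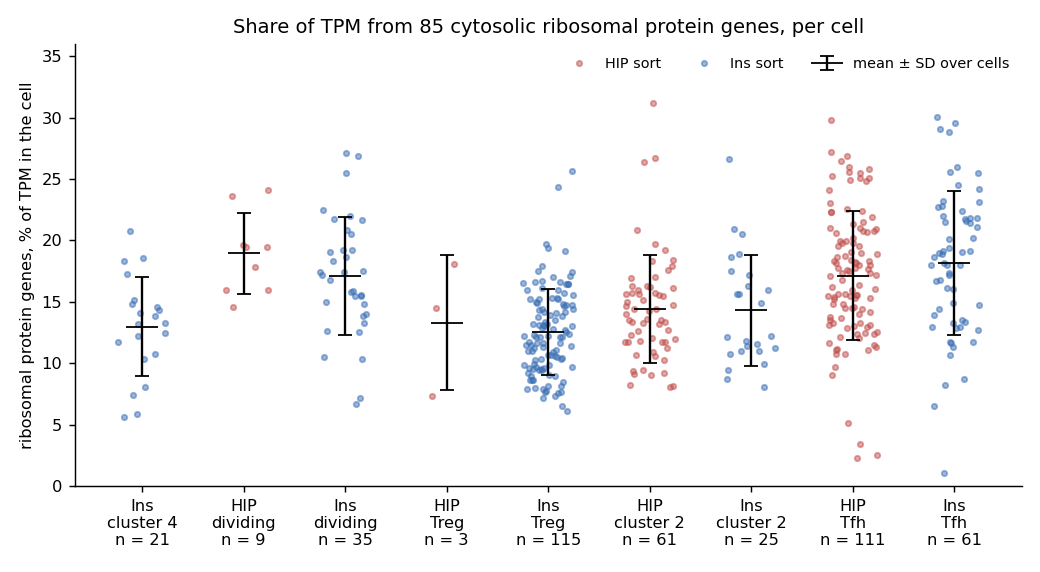
Each point is 1 cell, the vertical axis gives the percent of its TPM from the 85 ribosomal protein genes, columns are the authors' classes within the HIP (red) and Ins (blue) sorts, and bars give the mean and SD over cells. Ins Treg cells centre on 12.5%, below dividing cells at 17.1% and Tfh cells at 18.2% in the same sort, with wide overlap.

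Of the 441 cells, 4 lay under 5%, all in the Tfh class, 3 from the HIP and 1 from the Ins sort. They had 625 to 872 genes detected, 6 to 14 members detected, and 18.6% to 44.4% of TPM from Rn45s. Within classes the share went with the number of genes detected, with a rank correlation over cells of 0.33 in dividing cells, 0.41 in cluster 2, 0.48 in Treg cells, 0.49 in Tfh cells and 0.52 in cluster 4 (n = 44, 86, 118, 172 and 21 cells). Both values of a cell come from the same library, and the part of depth in the share was not tested. In cluster 4 the share had a rank correlation of -0.82 with the percent of TPM from Rn45s over the 21 cells, and the part of Rn45s in the share was not tested. The number of members detected followed the number of genes more closely, at 0.85 over all cells.

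**Figure D2:**
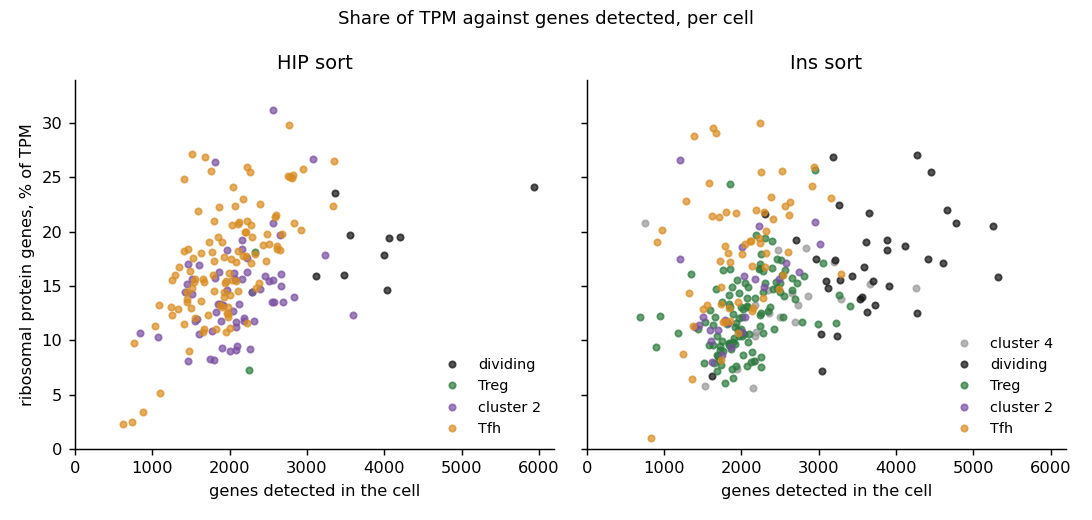
Each point is 1 cell, with genes detected on the horizontal axis and the percent of TPM from ribosomal protein genes on the vertical axis, coloured by class, for the HIP sort (left) and the Ins sort (right). The 4 cells under 5% lie below 1000 genes. Dividing cells have the highest median number of genes (3992 in the HIP and 3610 in the Ins sort) and overlap other classes in both sorts.

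Among Ins cells, ribosomal protein transcripts were lower in Treg than in Tfh cells across nearly the whole family. The share averaged 12.5% in Treg and 18.2% in Tfh cells, a difference of -5.61 percentage points. It was lower in Treg cells in each of the 3 Ins blocks, at 13.3%, 12.6% and 12.0% in Treg cells against 15.7%, 21.0% and 17.2% in Tfh cells. Genes detected were alike, with medians of 2017 in Treg and 1963 in Tfh cells, and Rn45s took 2.62% and 3.08% of TPM on average. Among cells with 1500 to 3000 genes the difference was -6.30 points.

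A member was called higher or lower where the ratio of class mean TPM was at least 1.5 or at most 1/1.5, among genes that reached 25% of cells when both classes were pooled, so a gene could pass through 1 class alone. In Treg against Tfh cells, 37 of the 80 members that passed this detection filter were lower, where 19.4% of all 2328 genes tested were, and 1 was higher, where 21% of all genes were. The median ratio of the members was 0.685, against 0.998 over all genes tested, and 78 of the 80 had a ratio below 1. Of the 80, 58 were lower in each of the 3 blocks on its own, as were 16.8% of all genes. Without Ins block 2, 23 members were lower by the same rule. The 5 members that did not pass the filter were Rpl3l, Rpl39l, Rpl30, Rps27l and Rps19bp1.

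Rps29, a zinc-binding small subunit protein, ranged from 0 to 2899 TPM in Treg cells (median 769, mean 879 ± 657, n = 115 cells) and from 0 to 4927 TPM in Tfh cells (median 1752, mean 1848 ± 1087, n = 61 cells). Its block means were 869, 867 and 898 TPM in Treg cells and 1721, 2104 and 1693 TPM in Tfh cells, so the blocks did not overlap although the cells did. The ratio of means was 0.476. Rps27, another zinc-binding small subunit protein, ranged from 0 to 6539 TPM in Treg cells (median 1721, mean 1645 ± 1727) and from 0 to 11552 TPM in Tfh cells (median 2934, mean 3289 ± 2762). It was detected in 56.5% of Treg and 75.4% of Tfh cells, and the ratio was 0.500.

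Rps18, which sits in the head of the small subunit, ranged from 0 to 6709 TPM in Treg cells (median 1418, mean 1536 ± 1362) and from 0 to 10285 TPM in Tfh cells (median 2466, mean 2854 ± 2402), a ratio of 0.538. Its block means were 1575, 1448 and 1588 TPM in Treg cells and 2728, 3863 and 1976 TPM in Tfh cells, again without overlap. Rpl7l1, a paralog of the large subunit gene Rpl7 that acts in ribosome assembly, had the lowest ratio, 0.406, at a mean of 65.0 ± 170.0 TPM in Treg cells and 160.0 ± 298 TPM in Tfh cells. Its medians were 4.29 and 7.25 TPM and its highest cells reached 808 and 1305 TPM, so its means rest on a few cells.

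At the other end, Rpl24, a large subunit protein at the interface of the subunits, had a mean of 1567 ± 1069 TPM in Treg cells (0 to 4035, median 1388) and 1385 ± 1205 TPM in Tfh cells (0 to 5078, median 1245), a ratio of 1.13. Rpl37a, a large subunit protein, and Rps10, a small subunit protein, had ratios of 0.971 and 0.959. The member called higher, Rps4y2, had a ratio of 3.78 on means of 11.2 ± 83.8 TPM in Treg cells and 2.97 ± 4.45 TPM in Tfh cells. The medians were 0 TPM in both classes, it was detected in 40.9% of Treg and 45.9% of Tfh cells, and 1 Treg cell held 875 TPM. Without Ins block 2 no member was called higher.

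In other lists of the translation machinery the counts called lower lay mostly near the 19.4% of all genes. No gene of these lists was called higher, where 21% of all genes were. Their median ratios stand beside 0.998 over all genes tested. Of 5 elongation factors tested, 0 were called higher and 1 lower, Eef1g (810 against 1436 TPM, ratio 0.564), with a median ratio of 0.791. Eef1a1, which brings aminoacyl tRNA to the ribosome, averaged 7174 TPM in Treg and 9068 TPM in Tfh cells. The 3 ribosomal proteins outside the symbol rule, among them Fau and Gnb2l1, had a median ratio of 0.801, with none called in either direction. Ribosome biogenesis genes, a list of few members, had 4 of 8 lower and 0 higher (median 0.654), and initiation factors 5 of 28 lower and 0 higher (median 0.884). Of 7 other TOP mRNA genes 1 was lower and 0 higher (median 0.762), while Tpt1, a TOP mRNA that encodes the translationally controlled tumour protein, averaged 3059 TPM in Treg and 2475 TPM in Tfh cells. Mitochondrial ribosomal protein genes had 5 of 22 lower and 0 higher, with a median ratio of 1.09. The 1 regulator that passed the filter had a ratio of 0.694 and was not called.

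Among Ins cells, dividing cells lay above Treg cells for most of the family. These Treg cells are the same as in the comparison above. The share averaged 17.1% in dividing and 12.5% in Treg cells, a difference of 4.56 percentage points, and it was 4.26, 5.59 and 3.35 points in the 3 blocks. Of 81 members tested, 29 were at least 1.5-fold higher (35.8%), where 15.1% of all 3002 genes tested were, and 0 were lower, where 34.5% of all genes were. The median ratio was 1.36 for members and 0.844 for all genes, and 59 members were higher in each of the 3 blocks, as were 17.5% of all genes. Genes detected differed between these classes, with medians of 3610 in dividing and 2017 in Treg cells, and their part in the result was not tested. On the mean log2(TPM + 1) scale 74 members were called higher, where 69.5% of all genes were. The 4 dividing cells with 1500 to 3000 genes lay 3.73 points above the 105 Treg cells in that range.

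Rpl28, a large subunit protein, ranged from 445.4 to 3423 TPM in dividing cells (median 1625, mean 1709 ± 705, n = 35 cells) and from 0 to 3145 TPM in Treg cells (median 557, mean 624 ± 671, n = 115 cells), a ratio of 2.74. It was detected in 35 of 35 dividing cells and in 64.3% of Treg cells. Its block means were 1741, 1907 and 1462 TPM in dividing cells and 779, 621 and 516 TPM in Treg cells, with no overlap. Rps26, a small subunit protein near the mRNA exit, ranged from 1039.7 to 6009 TPM in dividing cells (median 3708, mean 3537 ± 1419) and from 0 to 7202 TPM in Treg cells (median 1571, mean 1753 ± 1302), a ratio of 2.02.

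Rps27l, a paralog of Rps27 that p53 induces, had a ratio of 2.15, with means of 312 ± 247 TPM in dividing and 145 ± 376 TPM in Treg cells, and was detected in 82.9% and 21.7% of cells. It passed the pooled detection filter only through the dividing class, where it is high, and asking for 25% of cells in each class separately left 28 of 80 higher, where 11.5% of all genes were. The members with the lowest ratios were Rps27 (0.805), Rpl24 (0.865), Rps14 (0.889) and Rps4y2 (0.896). Rps14 averaged 4329 ± 1377 TPM in dividing cells and 4870 ± 2544 TPM in Treg cells, so the most abundant member lay on the other side from most of the family.

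**Figure D3:**
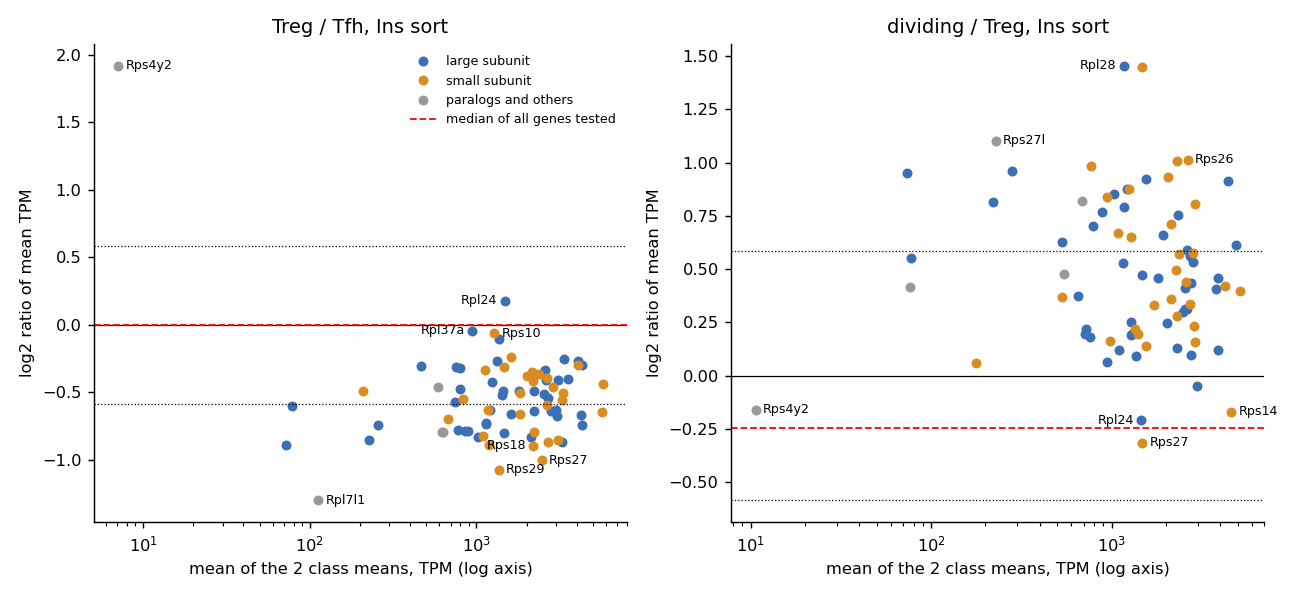
Each point is a member that passed the detection filter, with the mean of both class means in TPM on a log axis and the log2 ratio of class means, for Treg over Tfh cells (left) and dividing over Treg cells (right) of the Ins sort; dotted lines mark 1.5-fold and the red dashed line the median of all genes tested. On the left 78 of 80 members lie below 0, and on the right 76 of 81 lie above 0, over the whole range of levels.

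Other lists of the translation machinery are read against the 15.1% of all genes called higher and the 34.5% called lower, and the elongation and initiation factors lay near or below the first. In dividing against Treg cells, 8 of 14 ribosome biogenesis genes were called higher and 0 lower (median ratio 1.66), among them Npm1, a nucleolar chaperone (1139 against 673 TPM, ratio 1.69). Of 37 mitochondrial ribosomal protein genes 12 were higher and 1 lower (median 1.32), and of 7 other TOP mRNA genes 4 were higher and 0 lower (median 1.60). Npm1 belongs to both the biogenesis and the TOP mRNA list and is counted in each. Of 5 elongation factors 1 was higher, Eef1g (ratio 1.57), of 31 initiation factors 4 were higher and 2 lower (median 1.05), and of 2 regulators 1 was lower. Of the ribosomal proteins outside the symbol rule 1 of 3 was higher, Gnb2l1, the small subunit scaffold also named Rack1, at 1380.4 TPM in dividing and 831 TPM in Treg cells. Fau (3182 against 3571 TPM, ratio 0.891) and Tpt1 (2485 against 3059 TPM, ratio 0.812) had ratios below 1.

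In the HIP sort, cluster 2 lay below Tfh cells by less. The share averaged 14.4% in cluster 2 and 17.1% in Tfh cells, a difference of -2.70 percentage points, with -2.39 and -2.96 points in the 2 HIP blocks. Genes detected had medians of 2075 and 1951. Of 80 members tested 8 were lower, where 23.2% of all 2181 genes tested were. Called higher were 0, where 14.4% of all genes were, so calls on this ratio were less frequent among members than among all genes. On the mean log2(TPM + 1) scale 15 members were lower, where 10.4% of all genes were, and 9 were higher, where 26.1% were. Lower calls were thus more frequent among members on that scale. The median ratio was 0.828 for members and 0.943 for all genes. Of the 80, 62 were lower in each of the 2 blocks, where 35.6% of all genes were. The members with the lowest ratios were Rpl28 (701 ± 758 against 1304 ± 1150 TPM, 0.537), Rps27 (0.565), Rpl7l1 (0.595) and Rpl36al (0.609), and among the highest were Rpl34 (1.37), Rps19 (1.16) and Rpl24 (1.09). Rpl28 ranged from 0 to 2404 TPM in cluster 2 (median 578) and from 0 to 4348 TPM in Tfh cells (median 1162), and its block means were 712 and 692 TPM in cluster 2 and 1200 and 1423 TPM in Tfh cells. Of the gene lists, 1 of 5 elongation factors (Eef1g), 3 of 8 ribosome biogenesis genes and 5 of 21 mitochondrial ribosomal protein genes were lower, with 0, 0 and 2 higher. Of 25 initiation factors 2 were higher and 2 lower, and none of the 7 other TOP mRNA genes, 3 ribosomal proteins outside the symbol rule and 1 regulator was called.

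Between the sorts, within a class, fewer members than genes in general passed the 1.5-fold limits on the ratio of mean TPM. Counts were larger on the mean log2(TPM + 1) scale, where 21 of 80 members were lower in HIP Tfh cells against 17.7% of all genes, 23 of 81 were higher in HIP cluster 2 against 25.9%, and 20 of 83 were higher in HIP dividing cells against 34.5%. These comparisons use again the Tfh, cluster 2 and dividing cells described above. In Tfh cells the share averaged 17.1% in HIP and 18.2% in Ins cells, a difference of -1.03 points, while the block means were 17.1% and 17.2% in HIP and 15.7%, 21.0% and 17.2% in Ins. Without Ins block 2 the difference was 0.550 points, in the other direction. Of 80 members 0 were higher, where 18% of all 2112 genes were, and 2 were lower, where 13.3% were. The 2 were Rpl34 (36.7 ± 137 against 94.8 ± 466.2 TPM, ratio 0.387) and Rpl7l1 (83.7 ± 174 against 160.0 ± 298 TPM, ratio 0.523). For Rpl34 the medians were 0 TPM in both sorts, and the block means were 8.37 and 68.9 TPM in HIP and 5.31, 18.3 and 230.2 TPM in Ins, so the difference lies in the third Ins block. The next lowest were Rpl5 (0.681) and Rps13 (0.691), and the highest Rps28 (1.26), Rpl37a (1.25), Rpl41 (1.21) and Rpl28 (1.21). Of these 4, Rpl37a alone had its lowest HIP block mean (1116 TPM) above its highest Ins block mean (1086 TPM). By this comparison of block means 2 of the 80 members were higher in HIP, as were 13% of all genes, and 7 were lower, as were 7.15% of all genes.

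In cluster 2 the share averaged 14.4% in HIP and 14.3% in Ins cells, a difference of 0.119 points, and the difference of medians was 1.78 points. Without HIP block 1 the difference of means was -0.0767 points and without Ins block 1 it was -0.379 points. Of 81 members 5 were higher, where 22.1% of all 2290 genes were, and 2 were lower, where 17.6% were. The 5 were Rps27l (367 ± 780 against 139 ± 336 TPM, ratio 2.64), Rpl27 (1.62), Rps20 (1.61), Rpl22 (1.57) and Rpl39 (1.57). Rps27l reached 25% of cells in the HIP sort alone, so it passed the pooled filter through the group where it is high, and the other 4 reached it in each sort. The 2 lower were Rpl7l1 (49.8 ± 121 against 128 ± 254 TPM, 0.389) and Rpl36al (0.626), and the next lowest were Rpl28 (0.701) and Rps18 (0.742). Rps27l was detected in 39.3% of HIP cells, with an exact Clopper-Pearson 95% interval of 27.1% to 52.7%. In Ins cells it was detected in 24.0%, with an interval of 9.36% to 45.1%, and these intervals overlap and cover counting error only. By block means without overlap 10 of the 81 members were higher in HIP, as were 11.7% of all genes, and 6 were lower, as were 5.02%.

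In dividing cells the share averaged 19.0% in HIP and 17.1% in Ins cells, a difference of 1.86 points. It was 0.0287 points when HIP block 2 was left out, which left 2 HIP cells. Of 83 members 1 was higher, Rpl26 (437 ± 228 against 283 ± 233 TPM, ratio 1.55), where 18.9% of all 5340 genes were. The 3 that were lower, where 28.1% of all genes were, were Rpl34 (0.360), Rpl30 (0.395) and Rps4y2 (0.420), each with means below 100 TPM in both sorts. Rpl30 passed the pooled filter through the Ins cells alone (22.2% of HIP and 37.1% of Ins cells). Rpl27a (1.495), Rpl36 (1.49) and Rps25 (1.49) came next at the high end, and Rpl36al (0.745) at the low end. The median ratio was 1.12 for members and 0.957 for all genes, and 70 of 83 members lay above 1. By block means without overlap 20 members were higher in HIP, as were 8.8% of all genes, and 5 were lower, as were 15% of all genes. Foxp3 was at 0 in the 9 HIP dividing cells and was detected in 77.1% of the Ins dividing cells, so this difference and the sort cannot be told apart. Genes detected had medians of 3992 in HIP and 3610 in Ins cells.

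**Figure D4:**
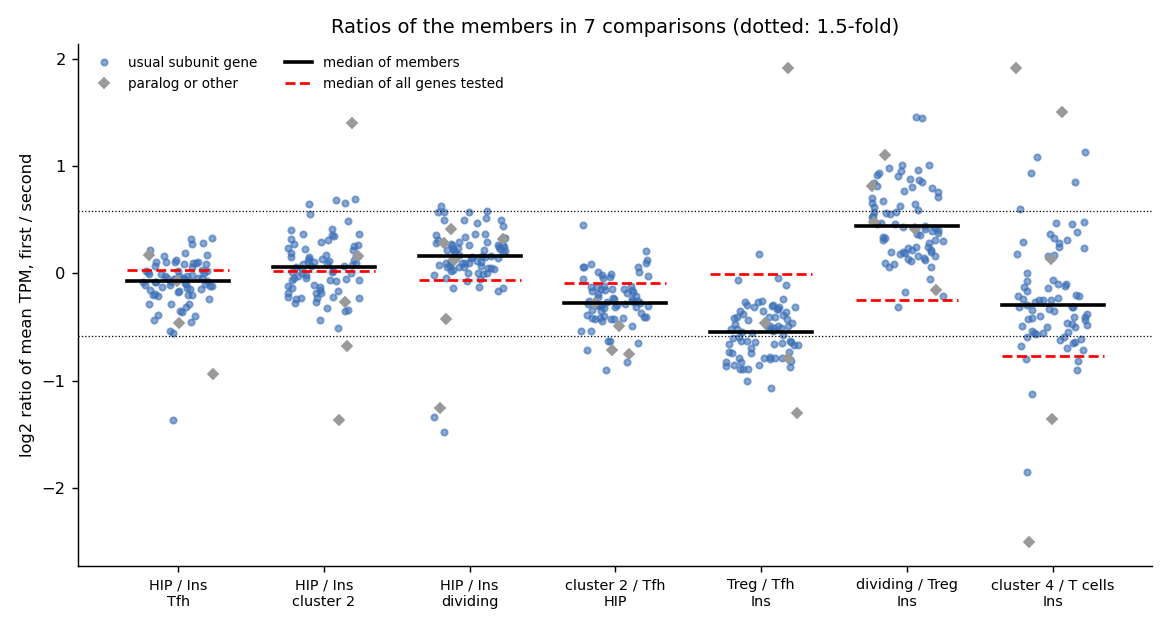
Each point is a member that passed the detection filter in a comparison, on the log2 ratio of mean TPM, first over second; black bars give the median of the members, red dashed bars the median of all genes tested and dotted lines 1.5-fold. The members lie below the other genes in Treg over Tfh cells (median ratios 0.685 and 0.998) and above them in dividing over Treg cells (1.36 and 0.844), and close to them between the sorts in Tfh cells (0.949 and 1.02) and cluster 2 (1.04 and 1.02).

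In cluster 4, calls on the ratio of mean TPM were less frequent among members than among all genes. Single members and paralog balances still stood apart from the Ins T cells. The share averaged 13.0% in cluster 4 against 14.9% in the T cells of the Ins sort, a difference of -1.87 points. Block means were 15.9%, 11.8% and 15.2% in cluster 4 (2, 14 and 5 cells) and 14.8%, 15.8% and 14.1% in T cells. Without Ins block 2 the difference was 1.02 points, in the other direction. The 5 transcripts highest in cluster 4, led by Igj, the antibody joining chain, took 21.4% of TPM there. The 5 highest of each Ins T cell class took 6.06% to 7.12%. The part of these transcripts in the difference was not tested. Rn45s took 4.11% of TPM on average in cluster 4 and 2.59% in Ins T cells, and its part in the difference was not tested. Of 81 members 16 were lower, where 56.6% of all 2743 genes were, and 7 were higher, where 11.2% were. The median ratio was 0.814 for members and 0.588 for all genes. Within each of the 3 blocks on its own, 10 members were higher, as were 9.48% of all genes, and 21 were lower, as were 51.7%. On the mean log2(TPM + 1) scale the median difference of the members was 0.49, of the opposite sign to the ratio of means, and 37 of the 81 members were called higher on it, where 33.8% of all genes were, and 3 lower, where 33.0% were.

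The largest ratio was that of Rpl36al, a paralog of the large subunit gene Rpl36a. It ranged from 0 to 4049 TPM in cluster 4 (median 2567, mean 2349 ± 1135, n = 21 cells) and averaged 624 TPM in Ins T cells, a ratio of 3.76. It was detected in 20 of 21 cells of cluster 4, and it made up 66.1% of the summed level of Rpl36a and Rpl36al there, against 39.6%, 40.1%, 46.1% and 34.1% in the Ins dividing, Treg, cluster 2 and Tfh cells. Rps27l and Rps27 differed in opposite directions. Rps27l averaged 513 ± 443.97 TPM in cluster 4 and 181 TPM in Ins T cells (ratio 2.84), while Rps27 averaged 556 ± 1085 TPM and 2011 TPM (ratio 0.277). Rps27l therefore supplied 48.0% of the pair in cluster 4, against 19.1%, 8.12%, 8.29% and 5.45% in the Ins dividing, Treg, cluster 2 and Tfh cells. Rps27 was detected in 5 of 21 cells of cluster 4 (23.8%) and 62.3% of Ins T cells, so it passed the pooled filter through the T cells, and Rps27l was detected in 16 of 21.

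Rpl10, a large subunit protein near the peptidyl transferase centre, ranged from 1624 to 10272 TPM in cluster 4 (median 4970.2, mean 5614 ± 2486) and averaged 2567 TPM in Ins T cells, a ratio of 2.19. Rpl34 had a ratio of 2.13 on 159 ± 543 TPM in cluster 4, where its median was 0. Among the lowest were Rps4y2 (0.176), Rpl7l1 (0.390) and Rpsa, which ranged from 154 to 2177 TPM in cluster 4 (median 977, mean 983 ± 486) and averaged 2144 TPM in Ins T cells, a ratio of 0.458. Large subunit genes had 1.38 times the summed level of small subunit genes in cluster 4 and at most 1.26 times in the T cell classes. Of the gene lists, 5 of 7 other TOP mRNA genes were lower and 0 higher (median 0.443), and 8 of 13 ribosome biogenesis genes were lower and 2 higher (median 0.615). Npm1 (ratio 0.351) is counted in both of these lists. Of 31 initiation factors 9 were lower and 3 higher (median 0.880), and 0 of 5 elongation factors were called (median 0.824). Of 33 mitochondrial ribosomal protein genes 13 were lower and 3 higher (median 0.786), of 3 ribosomal proteins outside the symbol rule 1 was lower, Fau (1946 against 3796 TPM), and of 2 regulators 1 was lower and 1 higher.

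Outside the 3 HIP Treg cells, Rps27l and Rpl36al made up more of their pairs in cluster 4 than in any T cell group. Rpl22l1, a paralog of Rpl22, averaged 565 TPM over all cells against 76.4 TPM for Rpl22, which in T cells is needed for alpha-beta lineage development in mice. Rpl22l1 made up 84.96% to 91.9% of this pair in the dividing, Ins Treg, cluster 2 and Tfh classes and 92.4% in cluster 4, and 52.7% in the 3 HIP Treg cells. Both genes were detected in 187 cells, only Rpl22l1 in 92 and only Rpl22 in 57. Rps27l made up 22.2%, 16.7% and 3.44% of its pair in the HIP dividing, cluster 2 and Tfh cells. In the 3 HIP Treg cells it made up 28.4%. Rpl36al made up 29.3%, 38.6% and 38.7% of its pair in the HIP dividing, cluster 2 and Tfh cells. Its 73.0% in the 3 HIP Treg cells lay above its part in cluster 4. Rpl7l1 made up 3.34% of the pair with Rpl7 over all cells. Rpl3l, a form of Rpl3 found mainly in heart and skeletal muscle, was detected in 1 cell, in cluster 4, and Rpl39l, a form of Rpl39 known from the testis, in 2 cells. Rps4y2 had at most 0.251% of the summed level of Rps4x and Rps4y2 in any class. Rps19bp1 averaged 63.9 TPM and was detected in 13.4% of cells.

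**Figure D5:**
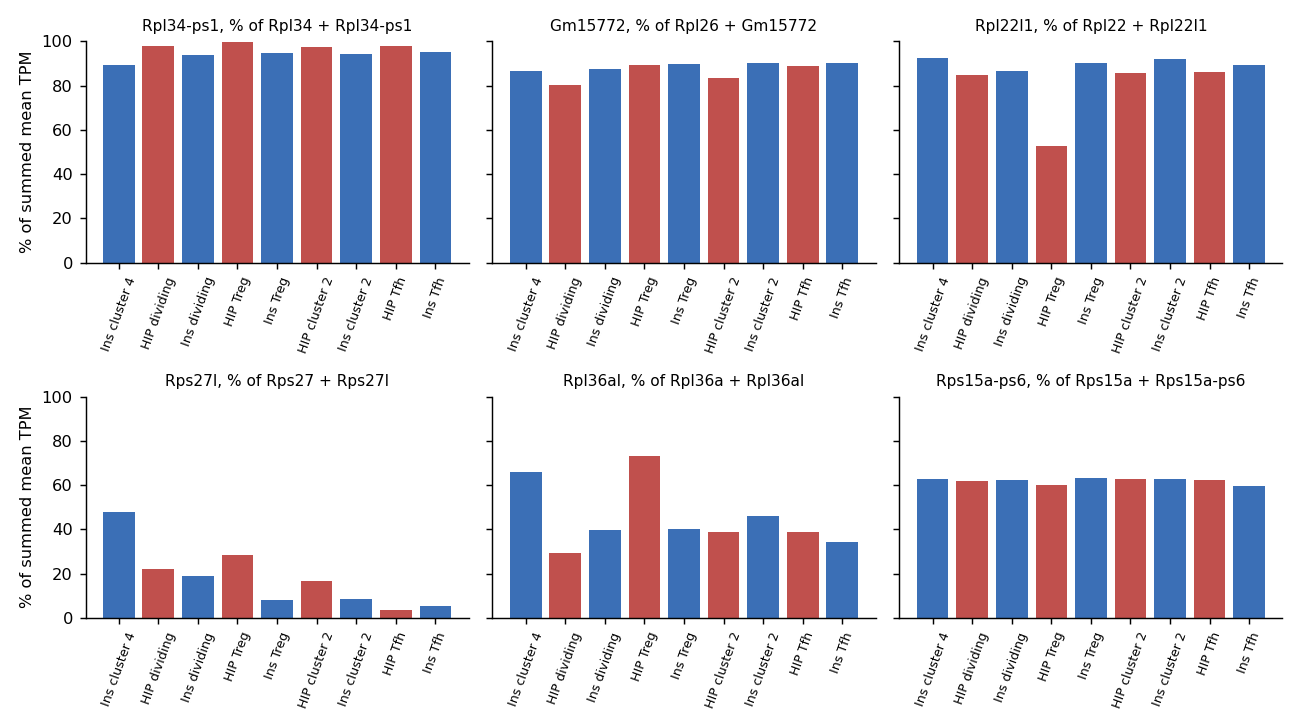
Bars give, for each class of the HIP (red) and Ins (blue) sorts, the mean TPM of the second gene as a percent of the summed means of both genes of a pair, on an axis from 0 to 100. Rpl34-ps1 and Gm15772 carry most of their pairs in every class, and in cluster 4 Rps27l and Rpl36al take 48.0% and 66.1%; the HIP Treg bars rest on 3 cells.

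The order of the usual genes by level was shared among classes. The rank correlation of their class means over 77 genes was 0.799 to 0.978 between any 2 of the 9 class and sort groups. It was 0.971 between HIP and Ins Tfh cells, 0.976 between HIP and Ins dividing cells and 0.968 between HIP and Ins cells of cluster 2. It was 0.964 between Ins Treg and Ins Tfh cells, and 0.854 to 0.916 between cluster 4 and each T cell group other than the 3 HIP Treg cells. Cluster 4 and HIP dividing cells stood at 0.916, and HIP dividing and HIP Tfh cells at 0.909. Genes are not independent replicates, and gene length and read sharing are common to all groups.

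Single members varied widely between cells of a class. The median coefficient of variation over the usual genes was 0.307 and 0.445 in HIP and Ins dividing cells and 0.561 in cluster 4. It was 0.732 to 0.774 in the Ins Treg, cluster 2 and Tfh classes of both sorts. Genes detected had medians of 3992 and 3610 in HIP and Ins dividing cells and 2477 in cluster 4. They had medians of 1862 to 2075 in the other classes named, and the part of depth in this spread was not tested. Over the 420 T cells the rank correlation of a usual gene with the sum of the other members ranged from 0.140 (Rpl30) to 0.610 (Rplp0), with a median of 0.455, and 72 of 77 were above 0.3. All values of a cell come from 1 library, and classes were not separated. Among the paralogs, Rps27l (0.0885) and Rpl7l1 (0.131) followed the family least of those detected in more than 25% of cells.

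Outside the members, the genes whose level ranked most like the family's share over the 420 T cells included Eef1a1 (rank correlation 0.548), the pseudogene copies Rps15a-ps4 (0.494), Gm15772 (0.483) and Rps15a-ps6 (0.463), Fau (0.439), Tcf7 (0.397), Gnb2l1 (0.369), Eef2 (0.358) and Gm6548 (0.358). Fau encodes a ribosomal protein fused to a ubiquitin-like protein, and Eef1a1 and Eef2 are elongation factors. Tcf7 encodes TCF-1, a factor of naive, memory and follicular helper T cells, and was detected in 38.1% of T cells. The lowest were the inhibitory receptor Tigit (-0.423), the class I gene H2-D1 (-0.391) and the chemokine receptor Cxcr6 (-0.369), then Gpr157 (-0.346), the integrin Itgae (-0.338), Arl5a (-0.336), the inhibitory receptor Lag3 (-0.335), H2-K1 (-0.333), Ctsb (-0.329) and AW112010 (-0.326). These values mix classes with different shares and use TPM that sums to a fixed total in each cell.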

How the data were processed

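The authors' deposited table gives 13561 genes by 441 single cells from mouse islets on a natural log scale. Raising e to a value and subtracting 1 gave cell totals of 100000 throughout, so values were taken as ln(TPM/10 + 1) and turned back into TPM. The submitters' processing notes list TopHat, Bowtie, RSEM 1.2.8 and mm10 but give them no role. The authors' deposited number of genes per cell matched the nonzero values of all 441 cells. Read depth is unknown.

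The share is the summed TPM of the members as a percent of all TPM in a cell. Means over cells were compared as ratios over all genes detected (1 TPM or more) in 25% of the cells of both sides pooled, without a test. Named were the 10 highest members, the least detected usual genes, the stalk genes, paralog pairs, and the 4 largest and smallest ratios of each of 7 comparisons. Members, lists and rules were chosen with earlier results of these data known. Intervals (exact, 95%) cover counting error only. No doublet caller was run on these singly sorted cells. Alternatives changed the scale, filter, weights, members and cells. Ratios were tested on simulated data. Python 3.11.15, numpy 2.4.6, pandas 2.3.3, scipy 1.17.1 and Biopython 1.88 were used. Start sites are from RefSeq (GRCm38.p6) and transcripts from GENCODE vM21. Some genes that the naming rule takes are not reported here.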

Additional observations from a re-analysis of the deposited data

How the results depend on the processing

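Each sort is 1 sample, so no difference has a replicate check, and depth limits the detection of single members in cells with few genes. No paired analysis was possible because the labels number single cells, with no numbers shared between groups, and no test was made. Differences in share are in percentage points, first minus second. Of 41 other settings 37 moved the difference in share by less than the spread between blocks, and the 4 that moved it more kept its direction. This spread was the larger SD of block means of either side. Block means ran from 15.7% to 21.0% in Ins Tfh cells, where the difference between sorts was -1.03. In cluster 4 they ran from 11.8% to 15.9%, with a difference of -1.87. A move within the spread therefore says little for these comparisons. The difference of medians was 1.78 for HIP minus Ins in cluster 2. For cluster 2 minus Tfh in the HIP sort it was -3.36 by medians, -3.82 in cells with 1500 to 3000 genes and -3.11 in cells with 1000 genes or more, a setting added after the data were seen.

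Leaving out each block in turn, the difference in share ranged from -1.92 to 0.550 for HIP minus Ins in Tfh cells, from -0.379 to 0.533 in cluster 2 (it was -0.0767 without HIP block 1) and from 0.0287 to 2.39 in dividing cells. It ranged from -2.96 to -2.39 for cluster 2 minus Tfh, from -6.78 to -4.04 for Treg minus Tfh, from 4.15 to 4.92 for dividing minus Treg, and from -3.02 to 1.02 for cluster 4 minus T cells. The counts of members called higher and lower ranged from 0 to 1 and 1 to 5 in Tfh cells, 2 to 8 and 1 to 4 in cluster 2, 1 to 7 and 2 to 5 in dividing cells, 0 to 1 and 9 to 10 for cluster 2 minus Tfh, 0 to 1 and 23 to 45 for Treg minus Tfh, 27 to 35 and 0 to 1 for dividing minus Treg, and 5 to 16 and 3 to 23 for cluster 4.

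Of 110 counts under other settings 76 were within 1.5 times, among them those over genes detected in 25% of the cells of each side, a filter added after the data were seen. On the mean log2(TPM + 1) scale the counts higher and lower were 1 and 21 for HIP against Ins Tfh cells, 23 and 8 for cluster 2, 9 and 15 for cluster 2 against Tfh, and 37 and 3 for cluster 4, and 20 were higher in HIP dividing cells and 74 in dividing against Treg cells. With log2(TPM + 10) they were 17 and 5 for cluster 2 and 27 and 4 for cluster 4, with 11 lower in Tfh cells and 12, 4 and 71 higher in HIP dividing cells, cluster 2 against Tfh and dividing against Treg cells. Without a detection filter 1 and 5 members were called in Tfh cells, 4 were lower in cluster 2, 1 was higher for cluster 2 against Tfh and 1 lower for dividing against Treg cells. In cells with 1500 to 3000 genes 1 and 1 were called in Tfh cells, 9 were higher in cluster 2, 2 higher for Treg against Tfh, 4 lower for dividing against Treg and 28 lower in cluster 4. In cells with 1000 genes or more 1 and 1 were called in Tfh cells and 2 were higher for Treg against Tfh. With each block weighted equally 3 were higher in HIP dividing cells and 8 lower in cluster 4. HIP dividing cells had none in the range of 1500 to 3000 genes, so that setting gave no value. On the mean log2(TPM + 1) scale 11.3% of all genes were higher and 17.7% lower for HIP against Ins Tfh cells. They were 25.9% and 15.6% for cluster 2, 26.1% and 10.4% for cluster 2 against Tfh, and 33.8% and 33.0% for cluster 4. In HIP dividing cells 34.5% of all genes were higher, and 69.5% in dividing against Treg cells. For the other settings here no share of all genes is given, so their counts describe members only. Causes of these moves were not tested.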
